A study of Rattus norvegicus with 4 samples.

Results

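To ask where open chromatin of rat Schwann cells (SCs) was found in control cells and not in cells carrying the Egr2 antisense RNA, 1112 regions with a peak in both Lenti-GFP libraries and in neither Lenti-AS library were examined. They were 2.55% of the 43589 merged regions on chromosomes 1 to 20. The regions were chosen by the peaks themselves. Each of the 4 peak lists was first reduced to its 35646 peaks with the highest −log10 p, which is the length of the shortest list, and peaks sharing at least 1 bp were then merged. The peak strengths of the chosen regions in the 4 libraries are therefore descriptions, with no test.

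The data were ATAC-seq peak lists of primary SCs from rat sciatic nerve, cultured with forskolin and heregulin and exposed to lentivirus over 48 h. Lenti-AS, built on pLVX-DsRed-Express2-N1, carried the Egr2 antisense RNA (Egr2-AS), and the Lenti-GFP control virus was pLVX-AcGFP1-N1, so that the fluorescent proteins of the vector backbones also differed between the groups. Each group had 2 libraries of 100000 cells each, and no strain or age was given in the labels. No rn6 annotation was used here, so the markers of SCs could not be checked and no genes are named beside the regions.

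SCs are the glia that myelinate peripheral axons, and the transcription factor Egr2 (Krox20) is required for myelination. ATAC-seq marks stretches of DNA that are free enough of nucleosomes for a transposase to insert sequencing adapters, mostly promoters and enhancers. Promoters tend to give strong and wide peaks in many cell types, whereas enhancers are usually weaker, lie farther from genes and differ more between cell states. A weaker peak in such a population can mean fewer cells with the site open or a less open site in each cell, and the peak lists cannot tell these apart.

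The name "open only in control cells" held for a minority of the regions once the complete lists were read. In the full lists, 856 of the 1112 regions (77.0%) held a Lenti-AS peak that had been too weak for the reduced list. Lenti-AS replicate 2 alone had a peak in 361 of them, Lenti-AS replicate 1 alone in 68 and both libraries in 427 (38.4%). The remaining 256 regions (23.0%) had no peak in either full Lenti-AS list. This share depends on how far the lists were reduced, and was 8.95% with 30000 and 0.166% with 20000 peaks per list, and 63.5% with lists reduced by fold. The 1112 regions are called regions of the Lenti-GFP pair here, rather than regions open only in control cells.

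The limit that decided presence was not the same in the 4 libraries. The weakest peak kept had a −log10 p of 13.4 and 5.22 in replicates 1 and 2 of Lenti-GFP. For Lenti-AS it was 10.7 and 11.3. In 693 of the regions (62.3%) the Lenti-GFP replicate 2 peak was itself below the limit of Lenti-AS replicate 1, and in 788 (70.9%) it was below that of Lenti-AS replicate 2. Among the 26790 regions found in all 4 reduced lists, 2201 (8.22%) had a Lenti-GFP replicate 2 peak below the lower Lenti-AS limit. The −log10 p rises with the depth of a library, and Lenti-GFP replicate 2 was the shallowest library. Lenti-GFP replicate 1 was 2.38 times as deep, and the Lenti-AS replicates 1.06 and 1.41 times as deep. With Lenti-GFP replicate 2 held to the higher Lenti-AS limit, an alternative chosen after seeing the data, 324 of the regions remained, and with the lists as deposited the same rule found 698. With 1 library left out, the rule reads fewer lists and found 2907 and 3278 regions without Lenti-GFP replicate 1 or 2, and 1992 and 2375 without Lenti-AS replicate 1 or 2.

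**Figure D1:**
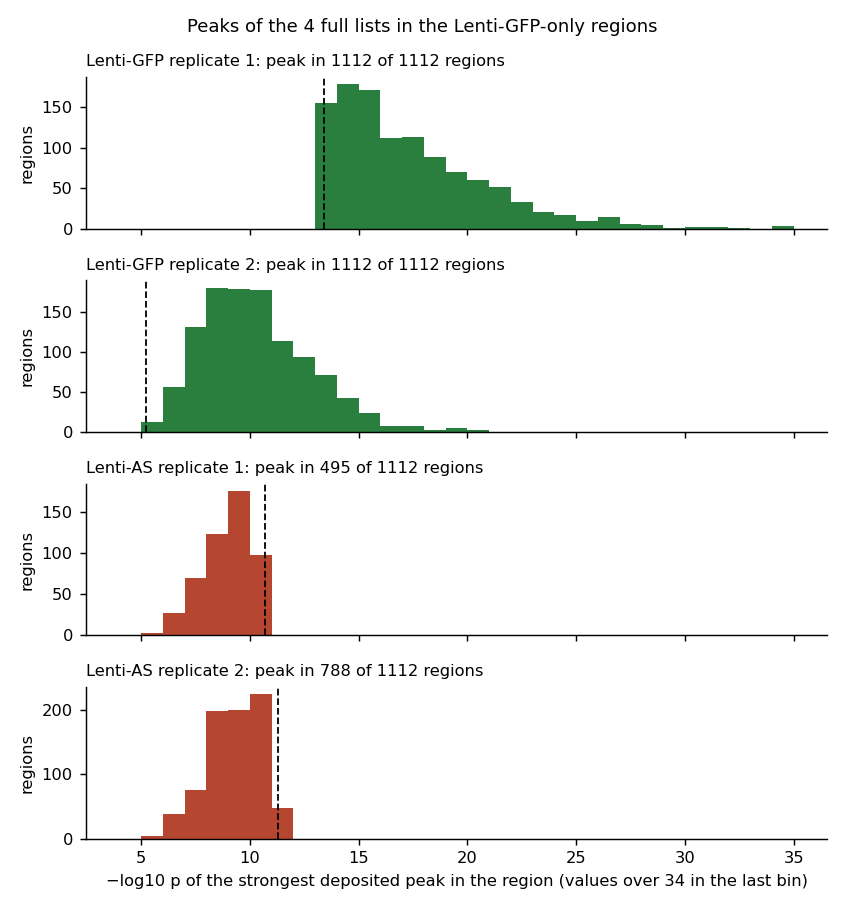
Number of regions of the Lenti-GFP pair (vertical axes) by the −log10 p of their strongest peak in each full list (horizontal axis), with the limit of each reduced list as a dashed line. The Lenti-AS peaks present in 495 and 788 regions lay below their limits of 10.7 and 11.3, and most Lenti-GFP replicate 2 peaks would have fallen below those limits too.

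The missed Lenti-AS peaks could lie only between the weakest listed peak, with a −log10 p of 5.09 in both libraries, and their limit. Of the 495 regions with a Lenti-AS replicate 1 peak, 172 (34.7%) were within 1 unit of −log10 p under the limit and 421 (85.1%) within 3 units. Of the 788 regions with a Lenti-AS replicate 2 peak, 230 (29.2%) and 603 (76.5%) lay within those distances. The same shares over all peaks removed by the reduction were not computed, so these are not read as a trait of the regions. The 3 regions just inside the limit of Lenti-GFP replicate 1 were chr19:58335377-58335731, chr3:138223614-138224022 and chr8:46696855-46697349, with a −log10 p of 13.3941, 13.3956 and 13.3956. Just outside were chr10:51866731-51867122 with 13.3918, chr11:64807004-64807567 with 13.3888 and chr15:49068991-49069572 with 13.3864. On either side of the limit the folds in Lenti-GFP replicate 1 were alike, from 3.34 to 4.11 inside and from 3.48 to 3.89 outside. The limit of Lenti-GFP replicate 1 alone left out 1324 regions.

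Fold enrichment over the local background, which depends less on depth than −log10 p does, was moderate in these regions. In Lenti-GFP replicate 1 it ran from 2.25 to 11.7 with a median of 4.82, and in Lenti-GFP replicate 2 from 2.37 to 9.05 with a median of 4.94. Where Lenti-AS peaks were listed, the fold ran from 2.08 to 5.69 with a median of 4.45 (n = 495) in Lenti-AS replicate 1. It ran from 2.17 to 5.42 with a median of 4.32 in Lenti-AS replicate 2 (n = 788). The ranges of the groups overlapped in their lower part, and the highest folds were found in the Lenti-GFP libraries alone. This followed from the rule, which kept the Lenti-AS peaks under their limits of 10.7 and 11.3 in −log10 p. Lenti-GFP peaks had no such ceiling, so no difference between the groups is read from the upper ranges. In the 26790 regions found in all 4 reduced lists, the median folds were 5.25 and 6.20 in the Lenti-GFP libraries and 7.35 and 6.57 in the Lenti-AS libraries.

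The 427 regions with a peak in all 4 full lists showed small differences in fold. Their median folds were 4.53 and 4.69 in replicates 1 and 2 of Lenti-GFP and 4.42 and 4.17 in those of Lenti-AS. The fold was above both Lenti-AS libraries in both Lenti-GFP libraries in 152 of them (35.6%). By pairs of libraries, Lenti-GFP replicate 1 was above Lenti-AS replicate 1 in 237 (55.5%) and above Lenti-AS replicate 2 in 330 (77.3%). Lenti-GFP replicate 2 was above them in 274 (64.2%) and 340 (79.6%). The rule had placed the Lenti-AS peaks of these regions under their limits, so the selection itself favoured lower Lenti-AS folds. The same counts were not made for other sets, and no difference between the groups is read from them.

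Ranked within each reduced list, the regions lay below the middle, at a median percentile of 39.2 by fold, 17.1 by −log10 p and 11.7 by pileup. By fold it was 25.5 without Lenti-GFP replicate 1, when the rule read 3 lists. In 325 of them (29.2%) the percentile of fold, averaged over both Lenti-GFP lists, was above 50. The 2 libraries placed them differently, with a median percentile of fold of 41.9 in Lenti-GFP replicate 1 and 33.4 in Lenti-GFP replicate 2. The local background was low, at a median of 1.49 and 1.41 times the genome-wide level of these libraries. In the regions found in all 4 lists it was 3.21 and 3.38 times that level. In regions with peaks in Lenti-GFP replicate 1 and Lenti-AS replicate 2 only, it was 1.52 and 1.40 times the level of those libraries. With peaks in both Lenti-AS libraries only, it was 2.52 and 2.46 times. A low background was thus not particular to the Lenti-GFP pair.

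The 12 regions with the highest percentile of fold are named here because they depart most from background. The first was chr16:55356183-55356885, 703 bp wide, with a fold of 11.7 in Lenti-GFP replicate 1 and 8.72 in Lenti-GFP replicate 2. Lenti-AS replicate 2 listed a peak there with a fold of 5.26, and Lenti-AS replicate 1 listed none. The summit pileup, the number of overlapping fragments, was 69 and 25 in the Lenti-GFP libraries and 19 in Lenti-AS replicate 2, whose depth lies between theirs. Both Lenti-GFP summits were 7 bp apart, and the nearest region found in all 4 lists was 215 kb away.

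The next regions in this order had one or no Lenti-AS peak. At chr14:24035977-24036543 the fold was 8.34 and 8.38 in the Lenti-GFP libraries, and at chr1:195683295-195683937 it was 8.16 and 7.38. These 2 had no peak in either full Lenti-AS list. At chr9:73045268-73045802 the fold was 7.67 and 8.50 in the Lenti-GFP libraries and 5.26 in Lenti-AS replicate 2. At chr9:77833893-77834452 it was 6.67 and 9.05, against 4.99 in Lenti-AS replicate 2. At chr6:52943044-52943698 it was 6.78 and 8.44, against 4.99. In each of the regions with a Lenti-AS replicate 2 peak, that peak was weaker by fold than both Lenti-GFP peaks. The selection itself favoured this result. These regions were picked for high Lenti-GFP folds, and the highest Lenti-AS replicate 2 fold in any region of the Lenti-GFP pair was 5.42. No difference between the groups is read from it.

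Lenti-AS replicate 2 also listed a peak at chr11:1010279-1010843, with a fold of 4.73 beside 6.94 and 8.05 in the Lenti-GFP libraries. At chr9:31447737-31448330 it was 3.68 beside 7.77 and 6.73. At chr17:74621853-74622297 it was 4.47 beside 7.17 and 7.04, and at chr10:23449158-23449625 it was 5.26 beside 6.94 and 7.04. Only chr2:24798018-24798687 and chr14:66153877-66154398 among the 12 had peaks in both full Lenti-AS lists. Their folds were 6.48 and 8.49 in the Lenti-GFP libraries against 4.85 and 5.02 in the Lenti-AS libraries for the former, and 7.53 and 6.68 against 5.49 and 4.73 for the latter. Of the 12 regions, 10 thus had a Lenti-AS replicate 2 peak, 2 a Lenti-AS replicate 1 peak, and 7 lay more than 100 kb from a region found in all 4 lists. The 6 regions highest by −log10 p were all among these 12, and chr16:55356183-55356885 led both orders.

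**Figure D2:**
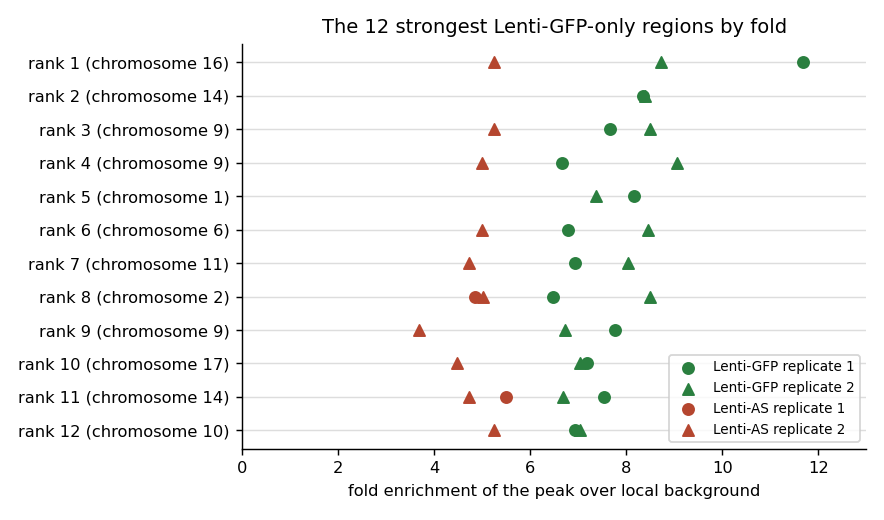
Fold enrichment (horizontal axis) of the 12 strongest regions of the Lenti-GFP pair, ordered from the top by mean percentile of fold, with each point 1 peak of a full list and no point where none was listed. The Lenti-GFP folds, from 6.48 to 11.7, lay above every Lenti-AS fold listed in the same region, and 2 regions had no Lenti-AS point.

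The 256 regions absent from both full Lenti-AS lists come closest to the name. Their fold ran from 2.74 to 8.34 in Lenti-GFP replicate 1 and from 2.91 to 8.38 in Lenti-GFP replicate 2, and the median percentile of fold was 46.5. At the genome-wide background, the weakest peak listed had a fold of 3.88 in the first and 3.42 in the second Lenti-AS library. The folds of 8.34 and 8.38 at chr14:24035977-24036543 were well above these values, and the lowest folds among the 256 regions were below them. In 101 of the 256 the Lenti-GFP replicate 2 peak reached the limit of Lenti-AS replicate 1. After the 2 regions already named, the next by fold were chosen after their values were seen. They were chr11:67359671-67360274 (6.51 and 6.70 in the Lenti-GFP libraries), chr5:42999757-43000293 (6.73 and 6.37), chr4:144126545-144126887 (5.95 and 7.19) and chr11:16679731-16680187 (5.84 and 7.38).

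Regions with peaks in both full Lenti-AS lists had lower folds in the Lenti-GFP libraries and lay closer to shared open chromatin than those with none. The median percentile of fold was 46.5 with no Lenti-AS peak and 32.4 with peaks in both Lenti-AS lists. The median distance to a region found in all 4 lists was 49.6 kb and 23.3 kb in these groups. Width and pileup went the other way. The median width was 478 bp and 566 bp, and the median Lenti-GFP pileup was 37 and 43 in replicate 1 and 18 and 20 in replicate 2. The median −log10 p in Lenti-GFP replicate 1 was 16.3 in both groups.

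The regions were 227 to 1701 bp wide with a median of 524 bp, and together they covered 627 kb. Each held 1 peak of Lenti-GFP replicate 1, and all but 3 held 1 peak of Lenti-GFP replicate 2. The Lenti-GFP replicate 2 peak was narrower, with a median of 293 bp against 514 bp. In 851 regions (76.5%) the shorter peak lay completely within the longer. The summits of the peaks in both libraries were a median of 57 bp apart, and within 50 bp in 513 regions (46.1%). In the regions found in all 4 lists, the Lenti-GFP summits were a median of 35 bp apart and within 50 bp in 61.4%. In the other sets with peaks in exactly 2 libraries, described below, this share ran from 45.5% to 65.0%.

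The widest regions were not the strongest. The region chr5:87330834-87332534 of 1701 bp had a fold of 3.86 and 4.20 in the Lenti-GFP libraries and 4.48 in Lenti-AS replicate 2. Its Lenti-AS fold was the highest of the 3. The region chr14:32595697-32597224 of 1528 bp had 4.97 and 4.09, against 3.88 in Lenti-AS replicate 2, and its Lenti-GFP summits were 999 bp apart. The region chr13:13323596-13325057 of 1462 bp had peaks in all 4 full lists, with 4.89 and 4.88 in the Lenti-GFP libraries and 4.44 and 4.55 in the Lenti-AS libraries. It lay 1264 kb from the nearest region found in all 4 lists, with 0 other regions within 500 kb.

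The same reading of the peak lists gives 5 further sets with peaks in exactly 2 libraries, which serve as the background for the 1112 regions. Both Lenti-AS libraries and no Lenti-GFP library held 1244 regions (2.85%). The other 4 pairs are mixed, each joining a Lenti-GFP with a Lenti-AS library. Lenti-GFP replicate 1 with Lenti-AS replicate 2 held 826 (1.89%) and Lenti-GFP replicate 2 with Lenti-AS replicate 1 held 761 (1.75%). Lenti-GFP replicate 1 with Lenti-AS replicate 1 held 487 (1.12%) and Lenti-GFP replicate 2 with Lenti-AS replicate 2 held 457 (1.05%). The share of the Lenti-GFP pair was above those of the 4 mixed pairs and below that of the Lenti-AS pair. With 2 libraries a group, this order has no test here.

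Weak peaks in the full lists were also common in the other sets. No peak of the absent libraries was found in 19.6% of the regions of the Lenti-AS pair, beside 23.0% in the Lenti-GFP pair. It was 54.7% for Lenti-GFP replicate 1 with Lenti-AS replicate 2 and 27.9% for Lenti-GFP replicate 1 with Lenti-AS replicate 1. It was 4.99% for Lenti-GFP replicate 2 with Lenti-AS replicate 1 and 3.28% for Lenti-GFP replicate 2 with Lenti-AS replicate 2. These shares are not like for like. Lenti-GFP replicate 2 lost 0 peaks when the lists were reduced, so no weaker peak of it could be found, and in the 3 sets from which it is absent only 1 list was longer than its reduced list. No order between the sets is read from them.

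Fold and width of the 6 sets went with a peak in Lenti-GFP replicate 1. The median percentile of fold was between 32.7 and 39.7 in the 3 sets that include Lenti-GFP replicate 1, and between 18.1 and 26.6 in the 3 sets without it. By −log10 p the sets were not separated in this way, with a median percentile of 17.1, 14.1 and 15.7 with this library and 16.8 in the Lenti-AS pair, 13.9 and 13.8 without it. The median width was 487 to 524 bp with this library and 392 to 420 bp without it. The 1112 regions, with 39.2, were closer to the mixed pair that joins Lenti-GFP replicate 1 with Lenti-AS replicate 2, at 39.7, than to the Lenti-AS pair, at 19.0. Lenti-GFP replicate 1 was the deepest library. The part of its depth in these values was not tested.

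The regions of the Lenti-GFP pair had the longest median distance to shared open chromatin of the 6 sets. To the nearest region found in all 4 lists the median was 31.1 kb, and 240 of them (21.6%) were more than 100 kb away. With 20000 peaks per list the median was 52.0 kb. In the Lenti-AS pair the median was 10.8 kb, and 45 of 1244 (3.62%) were that far away. It ran from 22.9 to 31.1 kb in the sets with Lenti-GFP replicate 1 and from 10.8 to 17.7 kb in those without it. For Lenti-GFP replicate 1 with Lenti-AS replicate 2 it was 27.8 kb and 123 of 826 regions (14.9%) were more than 100 kb away. Regions found in all 4 lists lay a median of 17.0 kb from each other. Only 32 regions (2.88%) of the Lenti-GFP pair were within 1 kb of such a region, against 88 (7.07%) in the Lenti-AS pair. It was 24 (2.91%) for Lenti-GFP replicate 1 with Lenti-AS replicate 2 and 71 (9.33%) for Lenti-GFP replicate 2 with Lenti-AS replicate 1.

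**Figure D3:**
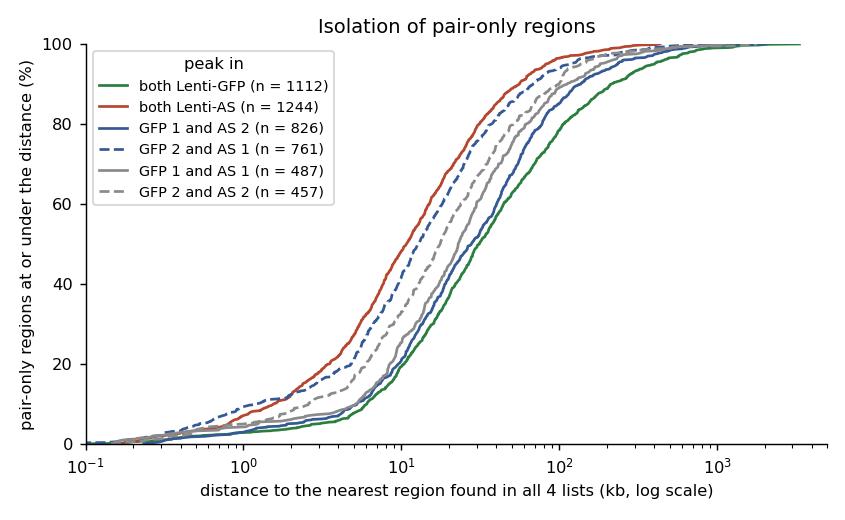
Cumulative share of regions (vertical axis, %) at or under a given distance to the nearest region found in all 4 lists (horizontal axis, kb, log scale), with 1 line for each of the 6 sets with peaks in exactly 2 libraries. The Lenti-GFP pair had the longest median, 31.1 kb, followed by the mixed pair of Lenti-GFP replicate 1 with Lenti-AS replicate 2 with 27.8 kb. The Lenti-AS pair had the shortest median, 10.8 kb. Within 1 kb, the mixed pair of Lenti-GFP replicate 2 with Lenti-AS replicate 1 held a larger share than the Lenti-AS pair.

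Among the 1112 regions, the isolated ones were stronger by fold. In the 278 regions nearest to a region found in all 4 lists, at most 12.8 kb away, the median fold was 4.21 in Lenti-GFP replicate 1 and 4.37 in Lenti-GFP replicate 2. In the 278 farthest, at 87.0 to 3324 kb, it was 5.23 and 5.36. The local background moved with it, from 2.06 to 1.30 times the genome-wide level in Lenti-GFP replicate 1 and from 2.01 to 1.14 times in Lenti-GFP replicate 2. No Lenti-AS peak was found in the full lists in 42 of the nearest 278 (15.1%) and in 91 of the farthest 278 (32.7%). Width barely moved, with medians of 512 and 527.5 bp.

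Regions of the Lenti-GFP pair were most frequent where open regions of any kind were sparse. Of the 8830 regions with at most 15 others within 500 kb, 450 (5.10%) belonged to the Lenti-GFP pair. Of the 8315 regions with 41 to 91 others, 82 (0.986%) did. The share fell at each of the 3 steps between, from 3.03% to 1.98% and 1.49%. The sparsest stretches thus held 40.5% of the 1112 regions and 20.3% of all regions.

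The Lenti-AS pair ran the other way, from 1.45% of the sparsest to 3.66% of the densest regions. The mixed pairs show how far such slopes occurred without a contrast of treatment. For Lenti-GFP replicate 1 with Lenti-AS replicate 2, the 2 deepest libraries, the share fell from 2.97% to 0.902%. For Lenti-GFP replicate 2 with Lenti-AS replicate 1, the 2 shallowest, it rose from 1.11% to 2.33%. In the other mixed pairs it went from 1.31% to 0.770% and from 1.10% to 0.878%. Between the deepest and the shallowest mixed pair the slope changed direction, and the part of depth in the slope of the Lenti-GFP pair was not tested.

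**Figure D4:**
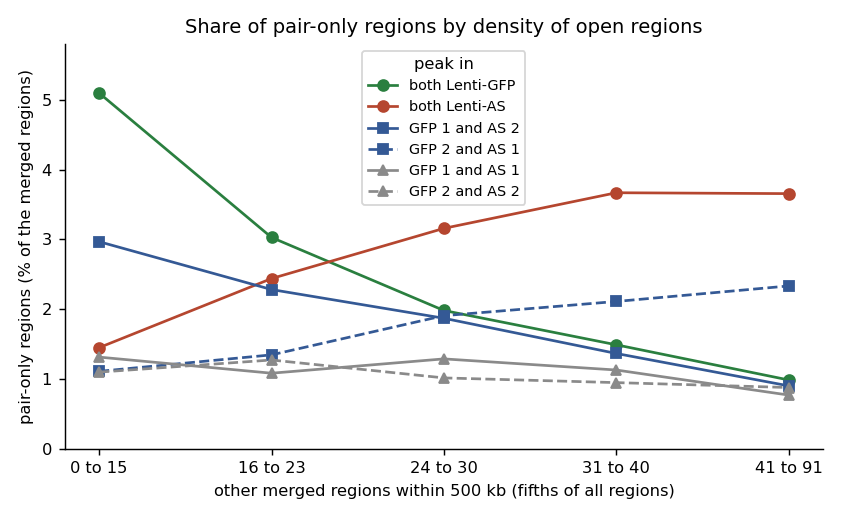
Share of merged regions (vertical axis, %) that belonged to each set with peaks in exactly 2 libraries, by the number of other merged regions within 500 kb (horizontal axis, 5 groups of regions). The Lenti-GFP pair fell from 5.10% to 0.986%, the mixed pair of the 2 deepest libraries fell from 2.97% to 0.902%, and the Lenti-AS pair rose from 1.45% to 3.66%.

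All 20 chromosomes held regions of the Lenti-GFP pair. Their share of the merged regions was lowest on chromosome 12 (21 of 1245, 1.69%), chromosome 10 (52 of 3027, 1.72%) and chromosome 20 (22 of 1203, 1.83%). It was highest on chromosome 11 (40 of 1208, 3.31%), chromosome 2 (112 of 3470, 3.23%) and chromosome 15 (45 of 1396, 3.22%). Chromosome 1, with the most merged regions, held 118 of 5170 (2.28%). Per 10 Mb spanned, the number varied less, from 3.22 on chromosome 13 to 4.84 on chromosome 9. Across the 20 chromosomes, the share fell where merged regions were dense, with a Spearman rho of −0.877. It was 0.337 for the Lenti-AS pair and −0.388 for Lenti-GFP replicate 1 with Lenti-AS replicate 2, and from 0.227 to 0.418 for the other mixed pairs. The share and the density have the count of merged regions in common, and all chromosomes come from the same 4 libraries.

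In windows of 5 Mb, 445 of 534 held at least 1 region of the Lenti-GFP pair, 380 held a region of the Lenti-AS pair and 336 held both. The fullest window, on chromosome 16 from 60000001 to 65000000, held 8 among 103 merged regions, beside 2 of the Lenti-AS pair and 56 found in all 4 lists. This was 7.77% of its regions, where 2.55% of all regions belonged to the Lenti-GFP pair. The 6 windows with 7 lay on chromosomes 2, 4, 6, 7, 15 and 17, among 66 to 139 merged regions, and held 0 to 6 regions of the Lenti-AS pair.

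Shared regions near the 1112 regions were compared between the groups. Within 100 kb of the 1112 regions lay 2800 regions found in all 4 lists, ranked in each library by pileup over all such regions and turned into normal scores. Their mean score was −0.0355 and −0.0266 in the Lenti-GFP libraries and −0.0514 and −0.0566 in the Lenti-AS libraries. The difference, Lenti-AS minus Lenti-GFP, was −0.0230, and 52.0% of the 2800 regions were lower in the Lenti-AS libraries, beside 48.7% of all regions found in all 4 lists. Ranked by fold instead, the difference was 0.0170 and 46.3% were lower, beside 48.7% of all. The direction of the difference thus depended on the measure. By pileup the difference around the mixed pairs ran from −0.00203 to 0.0579, and around the Lenti-AS pair it was 0.0846. By fold it ran from −0.0143 to 0.00951 around the mixed pairs and was 0.0164 around the Lenti-AS pair.

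Gatherings were runs of at least 3 regions of the Lenti-GFP pair with gaps of at most 500 kb. There were 46, with 155 of the 1112 regions (13.9%), on 17 chromosomes. Of these, 33 had 3 regions, 10 had 4, 2 had 5 and 1 had 6. The share in gatherings was 6.30% with the lists as deposited, 0% with absence judged in the full Lenti-AS lists and 1.85% with Lenti-GFP replicate 2 held to the higher Lenti-AS limit. With 1 library left out, which widens the rule, it was 54.0% and 53.9% without Lenti-GFP replicate 1 or 2, and 33.0% and 39.2% without Lenti-AS replicate 1 or 2. The Lenti-AS pair had 118 gatherings with 449 regions (36.1%) and up to 9 regions in 1 gathering. The mixed pairs had between 3 and 43, with the share of regions from 2.19% to 20.1%, and the sets differ in their number of regions.

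Within gatherings the regions of the Lenti-GFP pair were mixed with shared ones. The 46 gatherings spanned 627 merged regions, with 286 found in all 4 lists and 13 of the Lenti-AS pair. Over all 1112 regions, the neighbouring merged region on either side also belonged to the Lenti-GFP pair in 102 of 2224 cases (4.59%), where 2.55% of all regions did. In the Lenti-AS pair it was 70 of 2488 cases (2.81%), where 2.85% of all regions did. For Lenti-GFP replicate 1 with Lenti-AS replicate 2 it was 42 of 1651 (2.54%, where 1.89% did), and for Lenti-GFP replicate 1 with Lenti-AS replicate 1 it was 12 of 974 (1.23%, where 1.12% did). The mixed pairs without Lenti-GFP replicate 1 had 24 of 1522 (1.58%, where 1.75% did) and 8 of 914 (0.875%, where 1.05% did). The Lenti-GFP pair was also the more frequent one in sparse stretches, and the part of this was not tested.

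The largest gathering, on chromosome 16 from 63664310 to 64934854, held 6 regions of the Lenti-GFP pair among 21 merged regions. From its start, the folds in Lenti-GFP replicates 1 and 2 were 5.31 and 6.42 at chr16:63664310-63664976 and 5.72 and 4.52 at chr16:64058921-64059498. They were 5.07 and 6.03 at chr16:64246385-64246905 and 5.34 and 5.36 at chr16:64709646-64710571. The last pair of regions, chr16:64930563-64930876 and chr16:64934621-64934854, had 4.00 and 4.10, and 4.11 and 5.38. In the full Lenti-AS lists, 4 of the 6 had no peak. The fourth region had folds of 5.49 and 4.47 in the Lenti-AS libraries, the former above both Lenti-GFP folds.

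The gathering on chromosome 6 from 6774231 to 7199790 held 5 regions of the Lenti-GFP pair among 18, and 0 of the Lenti-AS pair. The strongest were chr6:6929118-6929836, with folds of 5.84 and 5.70 in the Lenti-GFP libraries and 4.20 and 4.99 in the Lenti-AS libraries, and chr6:6957121-6957512, with 5.76 and 4.80 and no Lenti-AS peak. At chr6:6774231-6775001 the folds were 4.06 and 4.07 with no Lenti-AS peak. The other two, chr6:7109799-7110244 and chr6:7199209-7199790, had Lenti-GFP folds of 3.78 and 4.02, and of 3.48 and 3.23. At chr6:7109799-7110244 the Lenti-AS folds, 3.99 and 4.05, were about the same.

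On chromosome 3 from 37242112 to 38526287, 5 regions of the Lenti-GFP pair lay among 36. The fold was 4.95 and 5.58 in the Lenti-GFP libraries at chr3:37242112-37242582, with 4.91 in Lenti-AS replicate 2. It was 5.22 and 5.16 at chr3:38074879-38075763, the only one of the 5 with no peak in the full Lenti-AS lists. The weakest, chr3:37549252-37549931, had 2.75 and 2.61 in the Lenti-GFP libraries and 2.52 and 2.64 in the Lenti-AS libraries. At chr3:37975301-37975810 the Lenti-GFP folds were 3.26 and 4.36, and the Lenti-AS folds of 3.99 and 3.85 lay between them. At chr3:38525679-38526287 they were 3.60 and 3.53 against 3.87 and 3.46. In 4 of these 5 regions open chromatin was thus listed in Lenti-AS cells as well.

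The shortest of the 10 gatherings with 4 regions was on chromosome 7 from 2112339 to 2149061, where 4 of 6 merged regions within 36.7 kb belonged to the Lenti-GFP pair and 0 were found in all 4 lists. Its strongest region, chr7:2112339-2112868, had folds of 5.51 and 6.70 and no Lenti-AS peak. The neighbour at chr7:2113491-2114185 had 5.67 and 5.03, with 4.99 in Lenti-AS replicate 2. At chr7:2140569-2141252 the folds were 5.00 and 3.70 in the Lenti-GFP libraries and 4.85 and 3.62 in the Lenti-AS libraries. At chr7:2148040-2149061 they were 3.58 and 3.46 with no Lenti-AS peak. This gathering was singled out after its values were seen.

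**Figure D5:**
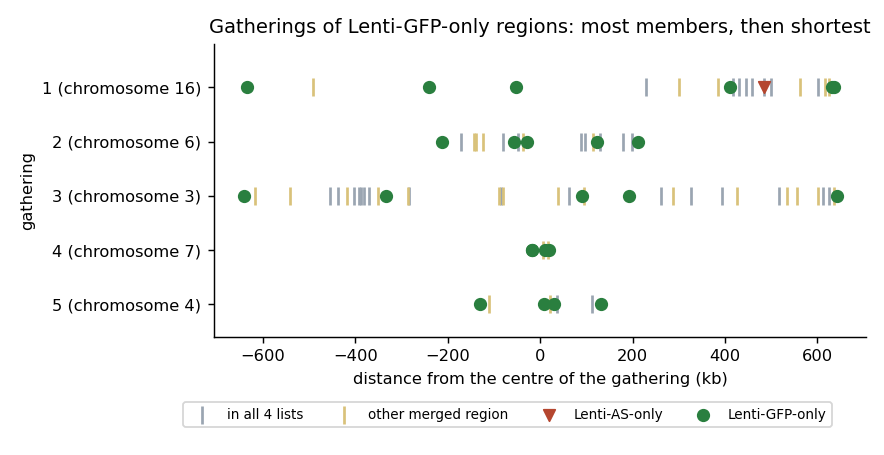
Positions of regions in the 3 gatherings of the Lenti-GFP pair with most members and in the shortest 2 of the 10 with 4 members (rows), as distance from the centre of each gathering (horizontal axis, kb), with circles for the Lenti-GFP pair, a triangle for the Lenti-AS pair and bars for other regions. The first gathering holds 6 circles among 21 regions, and the gatherings on chromosomes 6 and 3 hold 5 circles each among 18 and 36 regions.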

How the data were processed

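According to the study's methods and the submitters' processing notes, Bowtie2 (alignment to rn6), Picard (removal of duplicates) and MACS2 (peaks, library by library) were applied to paired-end reads. The version and options of MACS2, and any shift of reads for the transposase, are not given in the sources used here. The authors deposited 1 peak list per library. The deposited fold is a ratio of summit pileup to local background, −log10 p and −log10 q as deposited describe the same peak, and the deposited score was the −log10 q times 10, rounded down in at least 99.9913% of peaks. The −log10 p rises with depth. The lists had 54289 and 35646 peaks in the Lenti-GFP libraries and 43312 and 46125 in the Lenti-AS libraries.

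Each list was reduced to its 35646 peaks with the highest −log10 p, with ties ordered by chromosome and start, and peaks sharing at least 1 bp were merged. The summit pileup and background of each peak were recovered as the pair giving the deposited fold, as (pileup + 1) divided by (background + 1), and the deposited −log10 p as a Poisson upper tail. The fit was within 0.001 for 100% of peaks. It was checked on 10000 simulated peaks, of which 100% were recovered. Relative depth is the lowest background divided by the smallest peak width (210 bp, except 222 bp for the first Lenti-GFP library), which assumes that this width is the fragment length used by the peak caller. No read totals are in the lists, so depth is relative and no counting intervals are given for peaks. Percentiles are ranks within a reduced list, averaged over the libraries of a pair. Positions are on rn6, counted from 1.

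Groups and replicate numbers came from the labels, which call the libraries biological replicates and give no batch. No test was run, because the regions were chosen on the contrast of 2 against 2 libraries. The set of regions and all measures were chosen with earlier results of these data known. Regions named were the 12 highest by percentile of fold, the 6 highest by percentile of −log10 p, the 3 widest, the 3 on each side of the limit and those of the 3 largest gatherings. Others were chosen after their values were seen. Alternatives changed the reduction of the lists, the merging, the overlap, the ranking and the gatherings, and left out each library in turn. Sequences and genes are not reported. Python 3.11.15, NumPy 2.4.6, pandas 2.3.3 and SciPy 1.17.1 were used, and the merging was checked with bedtools 2.31.1 on simulated peaks.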

Additional observations from a re-analysis of the deposited data

How the results depend on the processing

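No paired analysis was possible because the regions were chosen on the contrast of the groups itself and no test was run on them. For the regions of the Lenti-GFP pair, 6 values were recomputed: their number (1112), median percentile of fold (39.2), median distance to a region found in all 4 lists (31.1 kb), share in gatherings (13.9%), share absent from both full Lenti-AS lists (23.0%) and share in the sparsest stretches (40.5%). The last value, and every alternative for it, was chosen after seeing the data.

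With the lists as deposited there were 698 regions, at 25.7 kb, with 6.30% in gatherings and, by construction, 100% absent from the Lenti-AS lists. With 30000 peaks per list, the values were a percentile of 45.4, 43.1 kb, 9.48% in gatherings, 8.95% absent and 47.3% in sparse stretches. With 20000 peaks they were 601 regions, 50.4, 52.0 kb, 6.66%, 0.166% and 44.1%. Lists reduced by fold gave 638 regions, 30.5, 5.33% in gatherings, 63.5% absent and 36.4% in sparse stretches. With absence judged in the full Lenti-AS lists there were 256 regions, at 46.5 and, with shared regions also taken from the full Lenti-AS lists, 42.7 kb, with 0% in gatherings and 54.7% in sparse stretches. The median percentile was 17.1 by −log10 p and 11.7 by pileup, and 48.2 by fold within the full lists, an alternative chosen after seeing the data. The share in gatherings was 3.96% with gaps of 250 kb, 33.1% with gaps of 1 Mb and 5.04% with at least 4 regions. Holding Lenti-GFP replicate 2 to the higher Lenti-AS limit, also chosen after seeing the data, left 324 regions, at a percentile of 52.6 and 38.7 kb, with 1.85% in gatherings and 46.0% in sparse stretches.

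Leaving out 1 library relaxes the rule to fewer lists. The number ran from 1992 (without Lenti-AS replicate 1) to 3278 (without Lenti-GFP replicate 2), and was 2907 without Lenti-GFP replicate 1 and 2375 without Lenti-AS replicate 2. The percentile ran from 25.5 to 42.8 and the distance from 21.5 to 33.2 kb, both lowest without Lenti-GFP replicate 1 and highest without Lenti-GFP replicate 2. The share in gatherings ran from 33.0% to 54.0%, and that in sparse stretches from 33.2% to 43.8%. The share of all regions in sparse stretches was 20.3%. Other causes of these movements were not tested.

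Merging peaks up to 250 bp apart, an overlap of at least 50% and adding chromosome X moved the 6 values little. The number ran from 1100 to 1126, the percentile from 39.3 to 39.4 and the distance from 30.9 to 31.5 kb. The share in gatherings ran from 13.8% to 14.0%, that absent from 22.8% to 23.2% and that in sparse stretches from 40.6% to 41.2%. Ordering ties as text, recomputed for the number alone, gave 1113 regions and shared 1112 with the order used.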

Other observations

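Chromosome X, left out above, held 14 further regions with a peak in both Lenti-GFP libraries and in neither Lenti-AS library.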
